A study of Chlamydomonas reinhardtii with 16 samples.

Results

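The strain difference between the hmox1 mutant and the 4A+ wild type of the green alga Chlamydomonas reinhardtii is described here for dark-grown cells that were given biliverdin. The genes described are those at 1 RPKM or more (reads scaled to the gene's length and to the library's total reads) in at least 2 of the 4 libraries compared, and 13482 of the 17301 genes in the deposited table met this rule. Of these, 12452 were at 1 RPKM or more in all 4 libraries, 343 reached the minimum through the hmox1 libraries only and 211 through the wild-type libraries only. The gene nearest the minimum from above had a second-highest value of 1.000 RPKM and the gene nearest from below 0.9997 RPKM.

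The compared groups were hmox1 grown in darkness with 0.1 mM biliverdin IXα (BV) and 4A+ wild type grown in darkness with the same dose of BV, with 2 libraries each. All cultures of the study, with and without BV, received 0.5% methanol and grew heterotrophically on an acetate medium. The other 6 groups of 2 libraries were hmox1 and wild type in the dark without BV, and both strains with and without BV once 30 min of illumination (white, 150 µmol photons m-2 s-1) had been given. The labels name 1 mutant and 1 wild-type strain, so an effect of the lost heme oxygenase and any other difference between the strains cannot be told apart. Whether the paired libraries of a group are separate cultures is not stated, so the spread behind the p-values may be technical.

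Heme oxygenase opens the ring of heme and releases biliverdin, a linear tetrapyrrole. In plants and some algae, bilins are the chromophores or chromophore precursors of phytochromes. Reduced bilins made from biliverdin in the chloroplast have been studied as retrograde signals, that is, signals from the organelle to the nucleus. BV given in the medium is a means of supplying the product of this enzyme to cells from outside. The comparison with BV therefore asks which transcripts still differed between the strains when both had received the product of the missing enzyme.

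The hmox1 libraries held 13490000 and 17927698 reads in genes, against 23118623 and 33204541 in the wild-type libraries, and the 16 libraries ranged between 10213385 and 43414139. For a gene of 2 kb, 3 reads correspond to 0.111 and 0.0837 RPKM in the hmox1 libraries and to 0.0649 and 0.0452 RPKM in the wild-type libraries. Across the genes described, replicates correlated with Pearson's r = 0.9953 in hmox1 and 0.9967 in wild type on the log2(RPKM + 1) scale. The deposited table and the reference table pair no identifier with a gene name, so genes are given by identifier, with no role. For the same reason the transcript of the mutated heme oxygenase gene was not identified, the strain labels were not checked against it, and no count could be made for chlorophyll synthesis, photosynthesis or stress genes.

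With BV in the dark, 5858 of the 13482 genes differed between hmox1 and wild type at an adjusted p under 0.05 in limma, against 42.7% of all 13972 genes tested in the series. The call was higher in hmox1 for 4154 genes, with 30.3% of all tested genes called in that direction, and lower for 1704 genes, with 12.3% of all tested genes. Most of the differences were small. At least 2-fold on the log2(RPKM + 1) scale were 284 genes higher in hmox1 (2.06% of all tested genes) and 245 genes lower (1.75%). The median over all 13482 genes was itself 0.12 log2 above 0, and the surplus of higher calls depended on the scaling of the libraries. With TMM factors, which bring that median to -0.0027, 2602 genes were higher and 2681 lower, and with quantile scaling 3217 were higher and 2855 lower. The 2-fold groups were 203 higher and 294 lower with TMM factors, and 244 higher and 364 lower with quantile scaling.

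**Figure D1:**
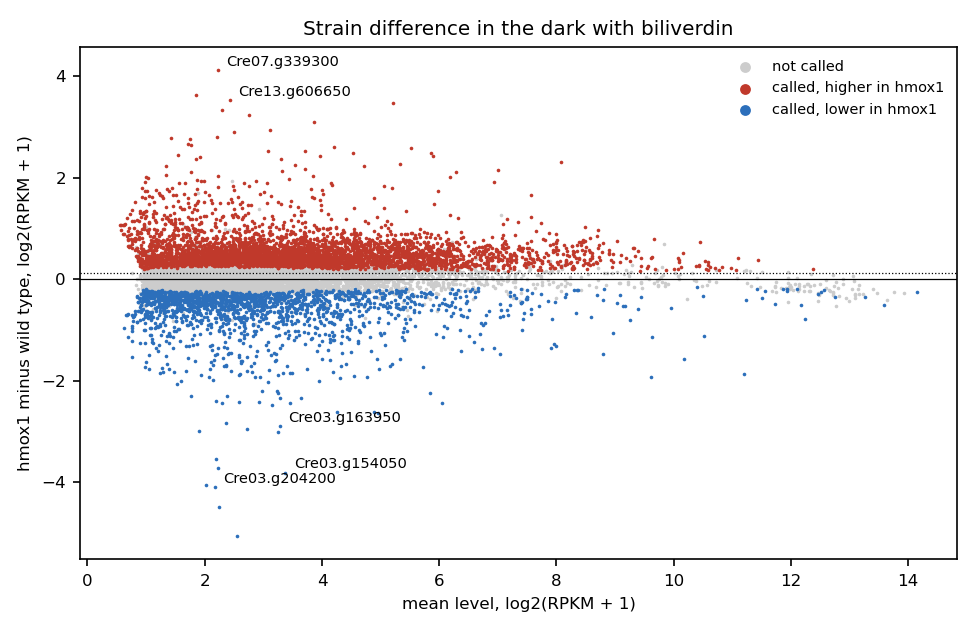
Each point is 1 of the 13482 genes, with its mean level over the 4 libraries on the x axis and the hmox1 minus wild-type difference with BV in the dark on the y axis, both on the log2(RPKM + 1) scale. Red points were called higher in hmox1 (4154 genes), blue points lower (1704 genes) and grey points were not called. The dotted line is the median difference of 0.12, and the points below -4 beside Cre03.g204200 are genes with recovered lengths under 200 nt, which were not named.

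The share of genes called higher depended on their level. Among 5 equal groups of genes ordered by mean level, with median levels of 1.48, 2.98, 5.49, 11.3 and 40.7 RPKM, the share called higher in hmox1 was 20.8%, 20.4%, 27.5%, 36.6% and 48.7%. The share called lower stayed between 11.6% and 14.3% in these groups. These shares were counted without TMM or quantile scaling, on which the surplus of higher calls depended. The median difference in the same groups was 0.04, 0.07, 0.12, 0.17 and 0.22 log2. With TMM factors it was -0.04, -0.04, -0.01, 0.03 and 0.07 log2. The 2-fold genes were spread differently, with 94 of the 284 higher genes in the lowest group and 38 in the highest. Of the 245 lower genes, 43 were in the lowest group and 55 in the highest. The lowest group lies nearest the minimum of 1 RPKM, which 343 genes reached through hmox1 only and 211 through wild type only. The part of this rule in the 2-fold counts was not tested. Gene length moved with the difference as well. From the shortest to the longest group of genes, with median lengths of 991, 1635, 2273, 3152 and 5427 nt, the median difference was 0.19, 0.20, 0.14, 0.09 and 0.01 log2 with BV, and 0.15, 0.16, 0.13, 0.10 and 0.08 log2 without BV. Within hmox1 with BV, replicate 1 minus replicate 2 gave -0.04, -0.06, -0.04, -0.01 and 0.04 log2 over the same groups. A trend with length was thus also present between these replicates, with a sign that depends only on how they are numbered. Over the 5 groups by level, the same replicate difference was 0.023, 0.017, 0.0004, -0.037 and -0.060 log2. A trend with level was thus present between these hmox1 replicates too. In wild type with BV, replicate 1 minus replicate 2 lay between -0.032 and -0.025 log2 in the groups by level. The part of gene length or level in the strain difference was not tested. The 100 genes with most reads held 37.7% and 36.1% of the reads in the hmox1 libraries, against 42.0% and 41.5% in the wild-type libraries, and 6 of them were called higher and 18 lower in hmox1.

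The largest rise among genes long and abundant enough to be named was that of Cre07.g339300. It had 18.2 and 18.8 RPKM in hmox1 with BV in the dark, against 0.164 and 0.0858 RPKM in wild type, from 516 and 709 reads against 8 and 6. The libraries did not overlap, the ratio of the mean RPKM was 148, and the difference was 4.11 ± 0.10 log2 (SE, limma adjusted p = 5.8e-14). Without BV it had nearly the same levels, 17.2 and 16.3 RPKM in dark hmox1 against 0.0825 and 0.0288 RPKM in dark wild type. After light with BV it was at 2.88 and 2.89 RPKM in hmox1, against 0.0431 and 0.0382 RPKM in wild type, so the mutant level was lower in light while wild type was low in both. The light difference was 1.90 log2 (adjusted p = 4e-10), on the log2(RPKM + 1) scale, which understates differences at levels this low. The change of the difference with light was -2.21 log2 on this scale. With limma-voom on the recovered reads it was -1.40 log2 and was not called (adjusted p = 0.14).

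Cre13.g606650 was second among the rises. It had 16.4 and 18.0 RPKM in hmox1 with BV in the dark, against 0.558 and 0.607 RPKM in wild type, a 29.5-fold ratio of means and a difference of 3.52 ± 0.12 log2 (limma adjusted p = 3.9e-12). Its level in hmox1 was similar in the other conditions, at 18.5 and 20.2 RPKM after light with BV, against 0.281 and 0.270 RPKM in wild type. The gene with the next identifier, Cre13.g606675, rose with it. It had 8.08 and 6.84 RPKM in hmox1 with BV in the dark, against 0.280 and 0.426 RPKM in wild type (2.64 ± 0.14 log2, adjusted p = 3.6e-10).

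Under the same limits of length and level, the largest fall was that of Cre03.g204200, which was nearly absent in hmox1. It had 0.103 and 0.0773 RPKM in hmox1 with BV in the dark, 1 read in each library, against 16.8 and 18.4 RPKM in wild type, from 280 and 441 reads. The difference was -4.09 ± 0.10 log2 (limma adjusted p = 5.8e-14). It was also scarce in hmox1 in the other conditions, with 2 reads in all over the other 6 hmox1 libraries against 2094 reads over the other 6 wild-type libraries.

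Cre03.g154050 was the second largest fall under these limits, with 1.73 and 1.81 RPKM in hmox1 with BV in the dark against 38.4 and 37.6 RPKM in wild type (-3.81 ± 0.11 log2, limma adjusted p = 3.9e-13), a 21.4-fold ratio. Unlike Cre03.g204200 it was low in both strains after light. With BV in light it had 0.417 and 0.589 RPKM in hmox1, against 3.14 and 3.38 RPKM in wild type, and the strain difference narrowed to -1.51 log2. The change of the difference with light was 2.31 ± 0.15 log2 (adjusted p = 4.3e-08). The log2(RPKM + 1) scale understates differences at levels as low as those in light, and its part in this change was not tested.

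**Figure D2:**
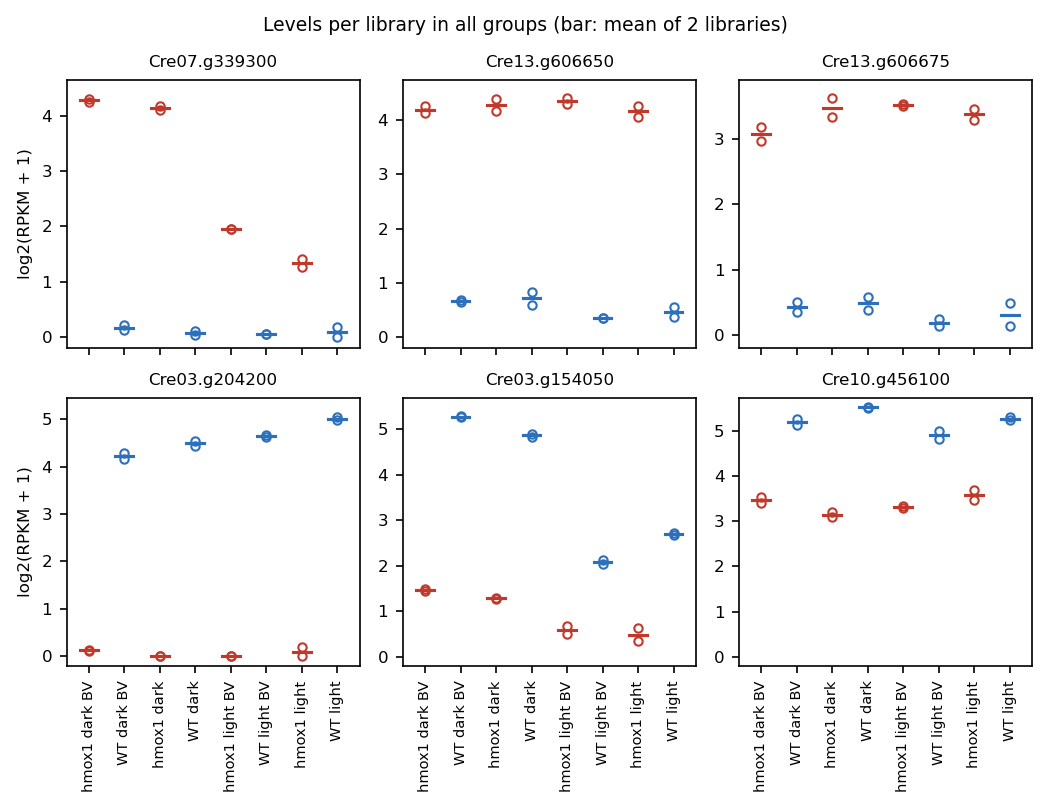
Levels of 6 genes in each library on the log2(RPKM + 1) scale, with hmox1 (red) left of wild type (blue) in each condition. Circles are libraries and bars are means of 2 libraries. The strains are apart in every condition for these genes, and Cre07.g339300 and Cre03.g154050 are lower in light than in the dark in the strain that has more of them.

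A further group was chosen after the values were seen, as genes of at least 200 nt with at most 3 reads over both libraries of one strain and 20 or more in both libraries of the other, with BV in the dark. By this rule 2 genes were nearly absent in hmox1, Cre03.g204200 among them, and 6 in wild type. Their reads with BV in the dark chose them and are given as a description, while the other 12 libraries were not used by the rule. Cre03.g205500 had 95 and 146 reads in hmox1 with BV in the dark, against 0 and 0 in wild type. Its 6 other hmox1 libraries held 1202 reads in all, against 3 reads in the 6 other wild-type libraries. Cre10.g452250 had 157 and 242 reads in hmox1 with BV in the dark, against 2 and 1 in wild type, and 2031 reads over the other hmox1 libraries, against 12 over the other wild-type libraries. Both genes were thus scarce in wild type in the conditions that did not choose them.

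The remaining genes had fewer reads. Cre01.g042700 had 48 and 54 reads in hmox1 with BV in the dark, against 1 and 0 in wild type. Cre08.g368850 had 46 and 66 reads in hmox1, against 2 and 0 in wild type. Cre12.g483720 had 20 and 25 reads in hmox1, against 1 and 0 in wild type, and Cre13.g569150 had 37 and 40 in hmox1, against 1 and 2 in wild type. In the 6 other libraries of each strain these 4 genes held 160 to 529 reads in all in hmox1, against 0 to 8 in wild type. In the opposite direction Cre09.g405123 had 1 and 1 reads in hmox1 with BV in the dark, against 34 and 54 in wild type, and 11 reads over the other hmox1 libraries, against 238 over the other wild-type libraries. Whether a gene is missing from a genome, differs in sequence or is not transcribed cannot be told apart from these values.

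Genes with a 2-fold difference were often next to each other by identifier. Of the 284 genes that were 2-fold higher in hmox1, 54 (19.0%) had an adjacent gene, among those described, that was also 2-fold higher, and the gene after a 2-fold higher gene was itself 2-fold higher in 10.3% of cases, against 2.11% of all genes described. Of the 245 genes that were 2-fold lower, 61 (24.9%) had such a neighbour, and the next gene was also 2-fold lower in 12.9% of cases, against 1.82% of all genes described. The stretches were short. The higher genes formed 21 stretches of 2 genes and 4 of 3, and the lower genes 29 of 2 genes and 1 of 3. Where both genes of an adjacent pair had an entry in the reference table, they were neighbours there in 12 of 15 higher pairs and 12 of 14 lower pairs. Genes that overlap or share reads and genes that move separately cannot be told apart here.

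Without BV, the dark strain difference was much the same. The libraries of that comparison are separate from the 4 with BV. Over the 13482 genes the log2 differences with and without BV had Pearson's r = 0.870 and Spearman's rho = 0.807, across genes, which are not independent replicates. Without BV, 3605 genes were called higher and 1169 lower in dark hmox1 (26.5% and 8.49% of all tested genes, 35% together). This split too depended on the scaling, with 1933 higher and 2020 lower with TMM factors, and 2428 higher and 2365 lower with quantile scaling. Of the 4154 genes higher with BV, 2938 were also higher without it, which is 70.7% of the list with BV and 81.5% of the list without, and 0 were lower. This overlap depended on the scaling too. With TMM factors 1797 of these 4154 genes were called higher without BV and 16 lower, and with quantile scaling 2159 and 24. Of the 1704 genes lower with BV, 939 were also lower without it, which is 55.1% of the list with BV and 80.3% of the list without, and 19 were higher. With TMM factors 1225 of these 1704 genes were called lower without BV and 7 higher, and with quantile scaling 1318 and 6.

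Of the 284 genes that were 2-fold higher with BV, 278 were called higher without it. The median difference was 1.34 log2 with BV, where the genes were chosen, and 1.41 log2 without BV. Their median level was 7.33 and 7.42 RPKM in hmox1 with BV in the dark, against 1.80 and 1.76 RPKM in wild type. Without BV it was 6.37 and 7.06 RPKM in dark hmox1, against 1.48 and 1.41 RPKM in dark wild type. Of the 245 genes that were 2-fold lower, 211 were called lower without BV and 5 higher, and the median difference was -1.37 log2 with BV and -1.03 log2 without it. Their median level was 3.40 and 3.12 RPKM in hmox1 with BV, against 13.5 and 13.4 RPKM in wild type with BV. Without BV it was 2.79 and 3.01 RPKM in hmox1, against 8.71 and 9.61 RPKM in wild type.

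In light the median difference of both 2-fold groups was smaller, more so for the lower genes, by amounts that depended on the scaling. After light with BV, 250 of the 284 2-fold higher genes were still called higher in hmox1 and 10 were called lower, and without BV in light 245 were higher and 8 lower. Of all tested genes, 52.2% were called higher and 9.23% lower in light with BV (61.4% together), and 53.5% higher and 7.72% lower in light without BV (61.2% together). Among the 13482 genes this surplus of higher calls turned round with TMM factors, which gave 2917 higher and 4511 lower with BV, and 3068 higher and 4656 lower without BV. With quantile scaling 2993 were higher and 3079 lower with BV, and 2635 higher and 2777 lower without BV. The median differences of the 284 genes were 1.15 and 1.12 log2, beside a median over all genes of 0.29 with BV and 0.30 without in light. With TMM factors the medians of the 284 genes were 0.90 with BV and 0.91 without. Of these genes 222 and 220 were then called higher, and 27 and 24 lower. With quantile scaling the medians were 0.83 and 0.79, with 234 and 218 called higher, and 12 and 9 lower. Of the 245 2-fold lower genes, 114 were called lower in light with BV and 34 higher, and 95 were lower and 32 higher in light without BV. Their medians were -0.23 and -0.14 log2. Their median level in light with BV was 1.44 and 1.59 RPKM in hmox1, against 2.44 and 2.82 RPKM in wild type, so these transcripts were low in both strains after light. With TMM factors the medians of the lower genes in light were -0.53 with BV and -0.45 without, with 152 and 140 called lower, and with quantile scaling -0.52 and -0.50, with 169 and 163 called lower. 

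**Figure D3:**
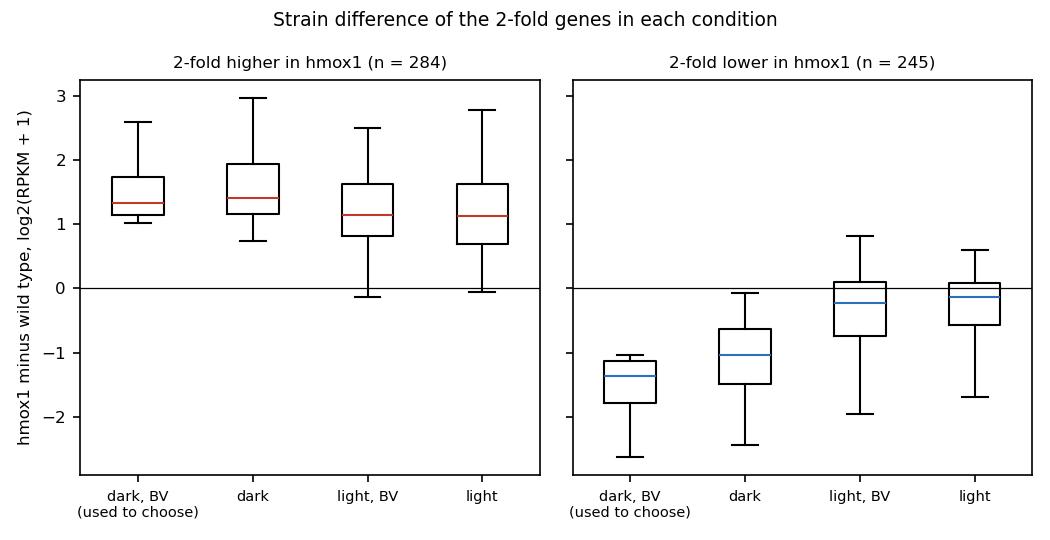
Strain differences, hmox1 minus wild type on the log2(RPKM + 1) scale, of the 284 genes that were 2-fold higher (left) and the 245 that were 2-fold lower (right) in hmox1 with BV in the dark. Boxes span the quartiles with the median, and whiskers run from the 5th to the 95th percentile. The first box of each panel shows the values that chose the genes, and the medians of the lower genes are -1.03 in the dark without BV, -0.23 in light with BV and -0.14 in light without BV.

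The dependence of the dark strain difference on BV was tested directly as the difference with BV minus the difference without it. It was called for 130 of the 13482 genes by limma, against 0.938% of all tested genes, while 1270 had an unadjusted p under 0.05. In 121 of these genes the strain difference was more negative with BV (0.873% of all tested genes) and in 9 more positive (0.0644%). Of the 121 genes, 90 had a higher mean with BV than without it in hmox1, and 120 did so in wild type. Their median level was 3.0 and 2.64 RPKM in hmox1 with BV, against 6.67 and 6.57 RPKM in wild type with BV. Without BV it was 2.27 and 2.54 RPKM in hmox1, against 2.30 and 2.53 RPKM in wild type, so without BV the medians of the strains were close. The median strain difference was -0.95 log2 with BV and 0.02 log2 without, and the median difference with minus without BV was 0.12 log2 in hmox1 and 0.99 log2 in wild type. These medians describe genes chosen by that interaction and carry no test. The count fell to 85 and 80 genes without replicate 1 and replicate 2 of hmox1 with BV, to 75 and 70 without replicate 1 and replicate 2 of wild type with BV, and to 55 with a pseudocount of 0.1. BV on its own was called for 42 of the 13482 genes in dark hmox1 (0.322% of all tested genes) and for 759 in dark wild type (5.47%). At an unadjusted limma p under 0.05 the counts were less far apart, with 849 genes in dark hmox1 and 2699 in dark wild type. Where nothing differs, a share of 0.05 of the genes is expected under this limit. These counts and the 1270 for the interaction include such genes, which make up a larger part of the smaller counts.

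**Figure D4:**
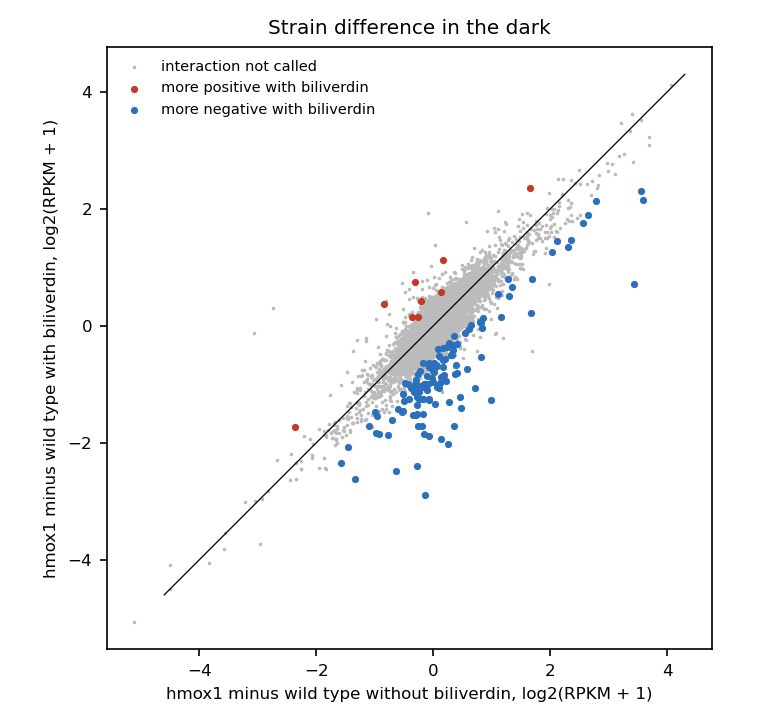
Strain differences of the 13482 genes in the dark on the log2(RPKM + 1) scale, hmox1 minus wild type, without BV on the x axis and with BV on the y axis. The line marks equal differences. The 121 genes in blue were called more negative with BV and lie below the line, the 9 genes in red were called more positive, and the grey genes were not called.

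Cre03.g163950 had the largest negative interaction with BV. It was at 2.67 and 2.46 RPKM in hmox1 with BV in the dark, against 26.4 and 24.6 RPKM in wild type with BV. Without BV it was at 0.363 and 0.471 RPKM in hmox1, against 0.515 and 0.596 RPKM in wild type. BV thus raised this transcript in both strains, by 1.33 log2 in hmox1 (limma adjusted p = 5.2e-06) and by 4.09 log2 in wild type (adjusted p = 3.6e-13), and the interaction was -2.76 ± 0.15 log2 (adjusted p = 3.7e-08). After light with BV it was low everywhere, at 0.205 and 0.221 RPKM in hmox1 and 0.213 and 0.245 RPKM in wild type, where the strains did not differ by more than their spread.

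Cre13.g603550 was high in hmox1 with and without BV and in wild type mainly with BV. It had 93.3 and 96.4 RPKM in hmox1 with BV in the dark, against 61.9 and 52.7 RPKM in wild type with BV. The libraries did not overlap, and the difference of 0.72 ± 0.28 log2 missed the threshold (limma adjusted p = 0.059). This difference was called in 3 of 13 alternatives. They were the limma fit of only these 4 libraries (adjusted p = 0.00019), limma-voom on recovered reads (0.01) and limma without the mean trend (0.049). Without BV it had 97.4 and 90.1 RPKM in hmox1, against 8.23 and 7.23 RPKM in wild type (3.44 log2, adjusted p = 5.5e-06). The interaction was -2.72 ± 0.39 log2 (adjusted p = 0.0087) and missed the threshold without replicate 1 of wild type with BV (adjusted p = 0.053) and with a pseudocount of 0.1 (adjusted p = 0.21).

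Cre16.g679750 was at 0.683 and 0.327 RPKM in hmox1 with BV in the dark, against 5.36 and 4.74 RPKM in wild type with BV. Without BV it was at 0.236 and 0.262 RPKM in hmox1, against 0 and 0.102 RPKM in wild type. The interaction was -2.27 ± 0.19 log2 (limma adjusted p = 5.4e-06), and it was called under every alternative that was run. Cre14.g631141 was at 7.32 and 7.53 RPKM in hmox1 with BV, against 20.4 and 18.4 RPKM in wild type with BV, and at 4.76 and 3.07 RPKM in hmox1 without BV, against 1.20 and 1.73 RPKM in wild type without BV. Its interaction of -2.25 ± 0.42 log2 (adjusted p = 0.041) missed the threshold in 6 of 13 alternatives, among them each of the 4 that left out a library (adjusted p between 0.13 and 0.19).

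The named genes whose strain difference was more positive with BV had interactions under 1 log2. Cre16.g679018 had 17.9 and 18.6 RPKM in hmox1 with BV in the dark, against 7.11 and 8.66 RPKM in wild type with BV, and 10.6 and 13.5 RPKM in hmox1 without BV, against 8.73 and 12.7 RPKM in wild type without BV. Its interaction was 0.96 ± 0.21 log2 (limma adjusted p = 0.044), and it was lost in 10 of 13 alternatives. Its recovered length was 219 nt, and its reads numbered 36 to 73 in the 4 libraries with BV.

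Cre12.g537225 was higher in hmox1 in the dark with and without BV. It had 23.2 and 19.3 RPKM in hmox1 with BV, against 3.62 and 3.01 RPKM in wild type with BV, and 15.6 and 16.5 RPKM in hmox1 without BV, against 4.85 and 4.01 RPKM in wild type without BV. The strain difference was 2.37 ± 0.10 log2 with BV (limma adjusted p = 6.1e-11) and the interaction 0.71 ± 0.15 log2 (adjusted p = 0.025). Its neighbour by identifier, Cre12.g537227, had 5.97 and 5.51 RPKM in hmox1 with BV, against 1.33 and 1.38 RPKM in wild type (1.52 ± 0.13 log2, adjusted p = 2e-07).

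Cre10.g456100 was lower in hmox1, and less so with BV. It had 9.56 and 10.6 RPKM in hmox1 with BV, against 33.8 and 37.2 RPKM in wild type with BV, and 7.52 and 8.18 RPKM in hmox1 without BV, against 45.3 and 44.2 RPKM in wild type without BV. The interaction was 0.65 ± 0.13 log2 (limma adjusted p = 0.025). Its neighbour Cre10.g456150 was also lower in hmox1 with BV, at 1.45 and 1.49 RPKM against 7.11 and 6.80 RPKM in wild type (-1.69 ± 0.11 log2, adjusted p = 6.2e-09), with no interaction called. Cre11.g473950 had 7.24 and 7.52 RPKM in hmox1 with BV, against 5.34 and 5.18 RPKM in wild type with BV, and 3.97 and 4.81 RPKM in hmox1 without BV, against 5.21 and 5.19 RPKM in wild type without BV (interaction 0.63 ± 0.13 log2, adjusted p = 0.034). The interactions of Cre12.g537225 and Cre10.g456100 were each lost in 5 of 13 alternatives and that of Cre11.g473950 in 6, leave-outs of single libraries among them.

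**Figure D5:**
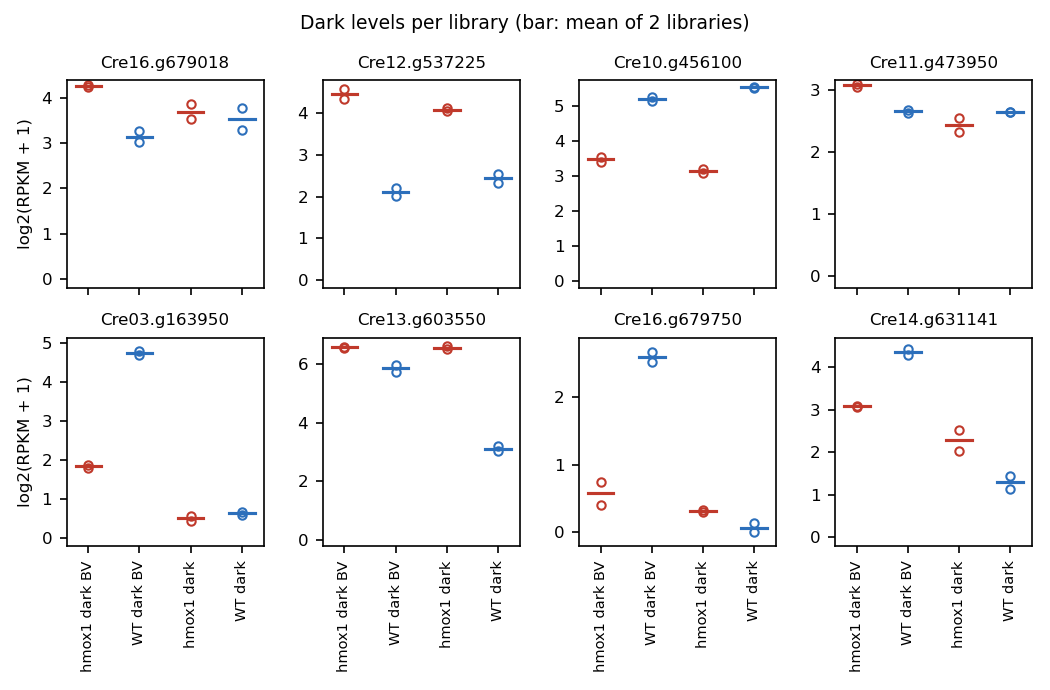
Dark levels per library, on the log2(RPKM + 1) scale, of the 4 genes with the most positive (top) and the 4 with the most negative (bottom) BV interaction among called genes of at least 200 nt and 5 RPKM in the higher group, with hmox1 in red and wild type in blue. Circles are libraries and bars are means of 2 libraries. In the bottom row wild type is higher with BV than without it in each gene, and hmox1 with BV is above wild type with BV for Cre13.g603550 only.

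The dependence of the strain difference on light, with BV in both, was tested as the difference in light minus the difference in the dark. It was called for 5324 of the 13482 genes by limma (38.7% of all tested genes), with 3832 more positive in light (27.9% of all tested genes) and 1492 more negative (10.9%). This split depended on the scaling, since the median over all genes was 0.20 log2, and TMM factors gave 2224 positive and 3361 negative, quantile scaling 2014 and 2241. In the dark with BV the TMM factors were 1.23 and 1.25 in hmox1, against 1.10 and 1.13 in wild type, and in light with BV 1.10 and 1.07 in hmox1, against 0.714 and 0.838 in wild type, so the lit wild-type libraries stood apart. Genes with a more negative difference in light had median levels of 14.0 and 14.3 RPKM in hmox1 in the dark with BV, against 9.93 and 10.2 RPKM in wild type. In light with BV their medians were 23.3 and 23.3 RPKM in hmox1, against 25.4 and 28.2 RPKM in wild type. The 3832 genes with a more positive difference had medians of 4.41 and 4.43 RPKM in dark hmox1 with BV, against 4.94 and 5.00 RPKM in wild type. In light with BV these were 2.75 and 2.73 RPKM in hmox1, against 1.30 and 1.57 RPKM in wild type. The medians of both sets describe genes chosen by that interaction and carry no test.

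The 4 named genes with the most positive light interactions were much lower in lit than in dark wild type, both with BV. Cre10.g424550 had 74.6 and 76.3 RPKM in hmox1 with BV in the dark, against 213 and 179 RPKM in wild type, and 18.0 and 23.4 RPKM in hmox1 after light, against 3.25 and 5.96 RPKM in wild type. Its interaction was 3.35 ± 0.46 log2 (limma adjusted p = 0.00062). Its strain difference in the dark was -1.36 log2 (limma adjusted p = 0.0081), and -1.24 log2 without replicate 1 of wild type. That call was lost in 2 of 13 alternatives, but not when only the 4 dark libraries with BV were fitted (adjusted p = 9.8e-06). Cre10.g424583, which followed it in the table's identifiers, had 148 and 151 RPKM in hmox1 in the dark, against 407 and 364 RPKM in wild type, and 29.1 and 39.0 RPKM in hmox1 after light, against 6.47 and 11.1 RPKM in wild type (interaction 3.23 ± 0.59 log2, adjusted p = 0.0035). Its dark difference of -1.36 log2 (limma adjusted p = 0.03) stayed between -1.28 and -1.44 log2 when any 1 of the 4 libraries was left out. The call was lost in 5 of 13 alternatives, but not when only these 4 libraries were fitted (adjusted p = 2.5e-06).

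Cre12.g518800 had 6.84 and 6.5 RPKM in hmox1 with BV in the dark, against 47.0 and 45.7 RPKM in wild type (-2.63 ± 0.10 log2, limma adjusted p = 1.2e-11). After light it had 1.44 and 1.44 RPKM in hmox1, against 0.451 and 0.550 RPKM in wild type, so the order of the strains turned round (interaction 3.33 ± 0.14 log2, adjusted p = 1e-09). Without BV in the dark it was lower, at 3.70 and 3.57 RPKM in hmox1 and 11.1 and 10.2 RPKM in wild type. Cre03.g163950, described above, had a light interaction of 2.88 ± 0.15 log2 (adjusted p = 9.8e-09).

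Of the 4 named genes with the most negative light interactions, 3 were higher in hmox1 in the dark and more abundant in light. Cre03.g207800 had 9.55 and 9.62 RPKM in hmox1 with BV in the dark, against 1.89 and 2.05 RPKM in wild type (1.83 ± 0.09 log2, limma adjusted p = 1.3e-10). After light it had 50.6 and 59.7 RPKM in hmox1, against 75.8 and 77.3 RPKM in wild type (-0.47 log2, adjusted p = 0.00024). The interaction was -2.30 ± 0.12 log2 (adjusted p = 1e-08).

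Cre01.g053000 had 8.91 and 7.57 RPKM in hmox1 with BV in the dark, against 3.19 and 3.68 RPKM in wild type, and 26.1 and 28.3 RPKM in hmox1 after light, against 59.98 and 63.3 RPKM in wild type (interaction -2.21 ± 0.17 log2, limma adjusted p = 3e-07). Cre24.g768900 had 22.7 and 25.8 RPKM in hmox1 with BV in the dark, against 8.89 and 8.69 RPKM in wild type, and 224 and 271 RPKM in hmox1 after light, against 374 and 481 RPKM in wild type (interaction -2.15 ± 0.17 log2, adjusted p = 5.4e-07). In both genes hmox1 was above wild type in the dark and below it in light, with no overlap of libraries. Cre07.g339300 also had a negative light interaction, -2.21 ± 0.13 log2 (adjusted p = 2.5e-08), which limma-voom on the recovered reads did not call (adjusted p = 0.14).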

How the data were processed

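Sequencing was single-end with 100-nt reads on HiSeq, per the labels' protocols, and Bowtie was used, per the submitters' processing notes. The sources used here do not give the build, annotation, counter or its use of strand, so no coordinates are printed. The authors deposited 1 table of RPKM for 17301 genes in 16 libraries, without a unit in its header. Its values are whole multiples of a step per gene and library, which gave the unit. Whole reads and gene lengths were recovered from these steps for 16851 of the 16852 genes above 0, within a tolerance of 0.1 reads. The largest distance was 0.0827 reads, and 99.8% of values lay within 0.01 reads. A length was accepted only if all values of the gene lay within a tolerance that came near 0.01 reads for small counts. This closeness was thus set by the rule and is no check of the recovery. The smallest accepted length was taken, so a gene whose reads share a divisor would get too short a length and too few reads. The median recovered length was 2244 nt.

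Groups were taken from the labels. limma (version 3.58.1, R 4.3.3) was fitted to log2(RPKM + 1) over 16 libraries in 8 groups (8 residual degrees of freedom, mean trend, robust, two-sided). A fold change on this scale understates the change of low genes. The genes tested (13972) reached 1 RPKM in 2 or more of the 16 libraries, and p-values were adjusted by Benjamini-Hochberg over these, with a threshold of 0.05. The model and the recovery of reads were tried on simulated data. The simulated strains had equal means but for a set of changed genes, so this does not bear on the scaling of the libraries. For the recovery, reads were simulated from the recovered reads and lengths themselves.

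Genes were named as the 2 largest rises and falls among those called, without overlap between strains, with at least 5 RPKM and 20 reads per library in the higher group and 200 nt of recovered length. Of each interaction, the 4 most positive and 4 most negative called genes under the same level and length rules were named, whether or not their strain difference was called. Called neighbours of these were added, and the nearly absent genes were added after their values were seen, without the minimum of 5 RPKM. The members and lists were chosen with earlier results of these data known. Identifiers were looked up among the locus tags in RefSeq's Chlamydomonas_reinhardtii_v5.5 assembly (12666 of 17301, and 10368 of the 13482 genes described), which holds 0 symbols other than the tag, so the pathway lists found no genes. Alternatives were the pseudocount, the filter, the libraries fitted, TMM and quantile scaling, no trend, a replicate block, limma-voom on recovered reads, and leaving out each library.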

Additional observations from a re-analysis of the deposited data

Results flagged for a closer look

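The results here are genes whose hmox1 minus wild-type difference itself differed between conditions by the interaction test of limma, at an adjusted p under 0.05. Between BV and no BV in the dark, the strain difference was more negative with BV for Cre03.g163950 (-2.76 log2), Cre13.g603550 (-2.72), Cre16.g679750 (-2.27) and Cre14.g631141 (-2.25). It was more positive with BV for Cre16.g679018 (0.96 log2), Cre12.g537225 (0.71), Cre10.g456100 (0.65) and Cre11.g473950 (0.63). Of these 8 genes, Cre03.g163950 and Cre16.g679750 were called under every alternative run. Between light and dark with BV, the strain difference was more positive in light for Cre10.g424550 (3.35 log2), Cre12.g518800 (3.33), Cre10.g424583 (3.23) and Cre03.g163950 (2.88). It was more negative in light for Cre03.g207800 (-2.30 log2), Cre07.g339300 (-2.21), Cre01.g053000 (-2.21) and Cre24.g768900 (-2.15). Groups of 2 libraries are too small for a check of single outlying libraries.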

How the results depend on the processing

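The count of genes called between the strains with BV in the dark was 5858 and stayed between 4009 and 6757 under the alternatives. Its direction split did not stay: 2602 genes were higher and 2681 lower with TMM factors, and 2855 lower with quantile scaling, where both scalings move the median over all genes from its 0.12 log2. The 2-fold groups were 484 higher and 370 lower with a pseudocount of 0.1, which shrinks low genes less, and 532 and 388 with limma-voom on recovered reads, which called 5974 genes. The 130 genes of the BV interaction became 55 with a pseudocount of 0.1, and between 70 and 85 when 1 of the 4 libraries was left out, the lone library being assumed to vary like the other groups; the cause was not tested. The 5324 genes of the light interaction became 4493 and 6318 without replicates 1 and 2 of wild type in light with BV, a pair of alternatives added after the data were seen. Replicate numbers were not taken to pair libraries: the differences between replicates in the 2 strains with BV in the dark correlated at r = 0.0341, with a range between -0.152 and 0.272 over all pairs of groups, and a replicate block gave 6144 genes between the strains and 153 for the BV interaction. Over the 28 named genes and 13 alternatives, 354 strain results kept their direction and their side of the threshold, 7 lost their call (Cre10.g424550 and Cre10.g424583) and 3 gained one (Cre13.g603550, not called as reported). The 8 genes of the BV interaction kept 70 and lost 34 calls over 13 alternatives, the 8 of the light interaction kept 119 and lost 1 over 15, and 0 turned direction.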
